A study of Vernicia fordii with 6 samples.

Results

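The basic helix-loop-helix (bHLH) transcription factors of the tung tree, Vernicia fordii, were described in male and female flower buds. They were taken as the unigenes (assembled transcripts) whose best SwissProt match carried bHLH in its description, or was GLABRA 3 (GL3) or a transcription factor named BEE, PIF, UNE, SPATULA, MUTE, FAMA, SPEECHLESS, ICE1 or HBI1. Matches named transcription factor MYC were left out. This rule used names alone and found 96 of 56065 unigenes, of which 20038 had a SwissProt match. All 96 best matches were Arabidopsis proteins, so that every name given here is that of an Arabidopsis homolog, and the roles given are those known in Arabidopsis. The 96 unigenes carried 65 distinct names, and 22 names were shared by more than 1 unigene (53 unigenes).

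Total RNA was sequenced from 3 samples of male and 3 samples of female flowers at developmental stage 7, the stage at which the sexes first differ in form, from 4-year old trees. Each sample held 30 flowers, and buds of both sexes were collected separately from the same plant, a tung tree of the cultivar "Duisuitong". The comparison of the sexes asks which genes differ when the unisexual flowers are set up. Whole buds were sequenced, so that the organ in which a transcript was present was not measured.

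bHLH proteins bind DNA as dimers. The basic region contacts the DNA, most often at an E-box, and the helix-loop-helix region joins the partners, so that the same protein can act in different processes with different partners. In Arabidopsis the family is known for epidermal cell fate (GL3 in trichomes and SPEECHLESS, MUTE and FAMA in stomata), light signalling (PIF proteins), growth under brassinosteroids (BEE proteins), the carpel margin and transmitting tract (SPATULA), and the tapetum of the anther (DYT1, AMS and the bHLH10, bHLH89 and bHLH91 group). No unigene here was named MUTE, HBI1, BEE 2, bHLH10 or bHLH89.

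Reads counted on unigenes ran from 11467832 (female replicate 3) to 40385019 (female replicate 2), and the bHLH unigenes took between 0.0372% (female replicate 3) and 0.266% (female replicate 2) of them. Between 86 and 95 of the 96 had a read in a library. Levels are given as TMM-scaled RPKM, that is reads per kilobase of unigene relative to a library total scaled by edgeR's TMM method, so that levels can be set side by side between unigenes. Female replicate 3 stood apart, with a TMM factor of 0.319 against 0.808 to 1.86 in the other libraries and an effective total of 3648171 reads. Over all 29327 unigenes tested, its value lay nearer to the male mean than to the mean of female replicates 1 and 2 in 61.4%, and so it did for 49 of the 81 bHLH unigenes tested (60.5%). Male replicate 1 lay nearer to the female mean than to the other male replicates in 50.9% of all unigenes and in 42 bHLH unigenes (51.9%). The results that rest on these libraries are given with and without them. A list of 35 unigenes held those named for pollen, anthers or the tapetum and those named exopolygalacturonase or galactose oxidase, and 28 were tested. Of the 28, 8 were called higher in male flowers (28.6%, against 1.56% of all unigenes tested) and 0 in female flowers (against 0.143%). At an unadjusted p under 0.05, 0 lay higher in female flowers. DESeq2 called 11 of the 35 higher in male and 1 in female flowers (against 2.51% and 1.50% of all with an adjusted p). In the fit blocked by replicate number 10 were called higher in male flowers. The summed level of all 35 was 1526 to 2203 CPM in male and 215 to 507 CPM in female flowers. The list was chosen with earlier results of these data known. The study had also reported polygalacturonase activity as enriched in male flowers of these samples. The list therefore describes the samples and is no independent check of their labels.

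The bHLH unigenes were mostly of moderate level. Their mean over the 6 libraries ran from 0.0944 to 102 TMM-scaled RPKM with a median of 4.96, against 5.60 for all unigenes with a SwissProt match. Of the 96, 10 lay above 20, 70 between 1 and 20, and 16 below 1. The unigenes were 308 to 3706 bp long (median 1235 bp, against 1273 bp for unigenes with a SwissProt match), and 63 had their best NR match in Ricinus and 18 in Populus.

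The 5 bHLH unigenes with the highest mean level were bHLH79 (contig_1755), ICE1 (contig_4267), GL3 (contig_3975), bHLH144 (contig_4104) and bHLH49 (contig_3018), and of these only GL3 had an unadjusted p under 0.05. bHLH79, a relative of the BEE proteins, was at 11.7, 188 and 216 TMM-scaled RPKM in male replicates 1, 2 and 3 and at 60.2, 69.0 and 69.2 in female replicates 1, 2 and 3. The female libraries lay between male replicate 1, the lowest of the 6, and the other male libraries (log2 difference male minus female 1.07 ± 0.84 SE, edgeR adjusted p = 0.620). bHLH49, which in Arabidopsis activates cell elongation genes, had the same order: 10.6, 43.4 and 45.1 in male and 22.7, 21.4 and 29.6 in female replicates (0.43 ± 0.53, adjusted p = 0.765). ICE1, also called SCREAM, the dimer partner of the stomatal bHLH proteins, was at 38.8, 68.8 and 77.6 in male and 47.6, 48.3 and 66.3 in female flowers (0.19 ± 0.39, adjusted p = 0.863). For ICE1 the libraries of the sexes overlapped over most of their range. bHLH144, of the SAC51 group, was the most even of the 5, with 39.3, 40 and 46.1 in male and 50.1, 43.0 and 35.0 in female flowers (-0.03 ± 0.30, adjusted p = 0.972). Its lowest and its highest value were both in female libraries.

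**Figure D1:**
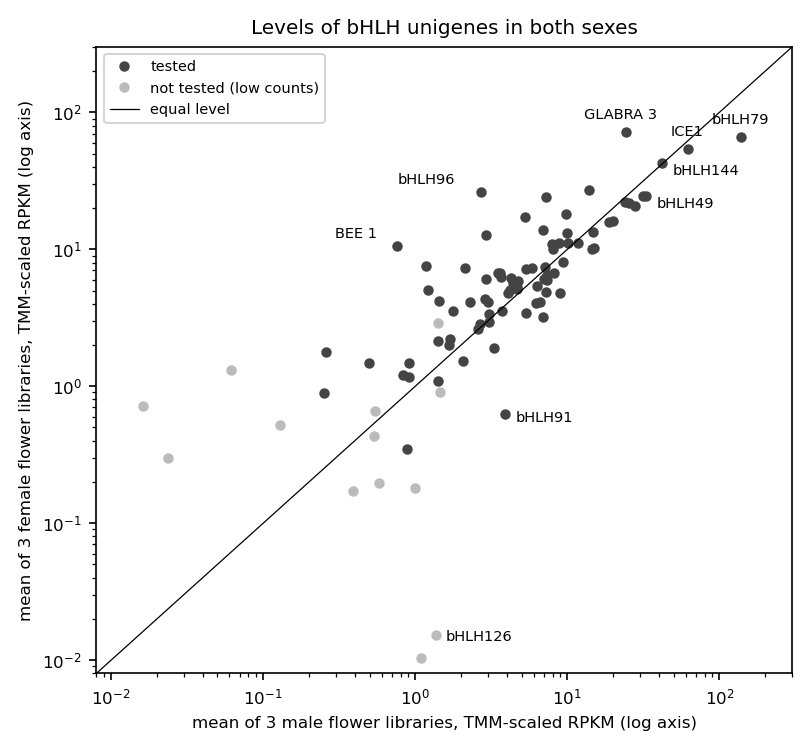
Mean level of each bHLH unigene in the 3 male (x axis) and the 3 female flower libraries (y axis), in TMM-scaled RPKM on log axes, dark for unigenes tested and light for those with too few reads, with a line at equal levels. Most points lie near the line, BEE 1 lies above it with means of 0.760 and 10.5, and the 2 unigenes without a read in male flowers cannot be drawn on log axes and were left out.

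Male and female flowers were compared with edgeR's quasi-likelihood test on the read counts of all unigenes that passed its expression filter, and calls were made where the Benjamini-Hochberg adjusted p was below 0.05 and the levels differed by at least 2-fold. The log2 difference is taken as male minus female and is negative where female flowers had the higher level. An adjusted p is that of this edgeR test unless another tool is named. Of the bHLH unigenes, 81 passed the filter (84.4%, against 82.9% of all unigenes with a SwissProt match). Of the 81, 1 was called in either direction (1.23%, against 1.70% of all unigenes tested). This was BEE 1, higher in female flowers (against 0.143% of all), and 0 were called higher in male flowers (against 1.56%). At an unadjusted p under 0.05, 13 lay higher in female flowers (16.0%, against 7.42% of all unigenes) and 2 in male flowers (2.47%, against 5.75%). DESeq2 called 7 higher in female and 2 in male flowers (against 1.50% and 2.51% of all unigenes with a DESeq2 adjusted p). With no filter on low counts edgeR called 1 in each sex (against 0.153% in female and 1.28% in male flowers), and in a fit blocked by replicate number it called 1 in female and 0 in male flowers (against 0.181% and 1.60%). On library totals without TMM it called 2 in female and 0 in male flowers (against 0.188% and 1.46%). By the sign of the fitted difference, 50 lay higher in female flowers (61.7%, against 54.5%) and 31 in male flowers (against 45.5%). The median log2 difference was -0.20, against -0.09 for all unigenes, and the range was -3.80 to 2.42. In whole buds, fewer cells of a type and less RNA per cell cannot be told apart.

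The 3 libraries of one sex did not overlap with those of the other in 17 bHLH unigenes. Of these, 11 lay higher in female flowers (13.6%, against 9.06% of all unigenes) and 6 in male flowers (7.41%, against 10.4%). On the RPKM as deposited, without TMM, 2 were apart with female flowers higher (against 1.28% of all) and 0 with male flowers higher (against 3.46%). Where libraries are said below not to overlap, the TMM-scaled values are meant. With 3 samples against 3, an exact two-sided permutation test of a single unigene cannot give a p below 0.1.

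**Figure D2:**
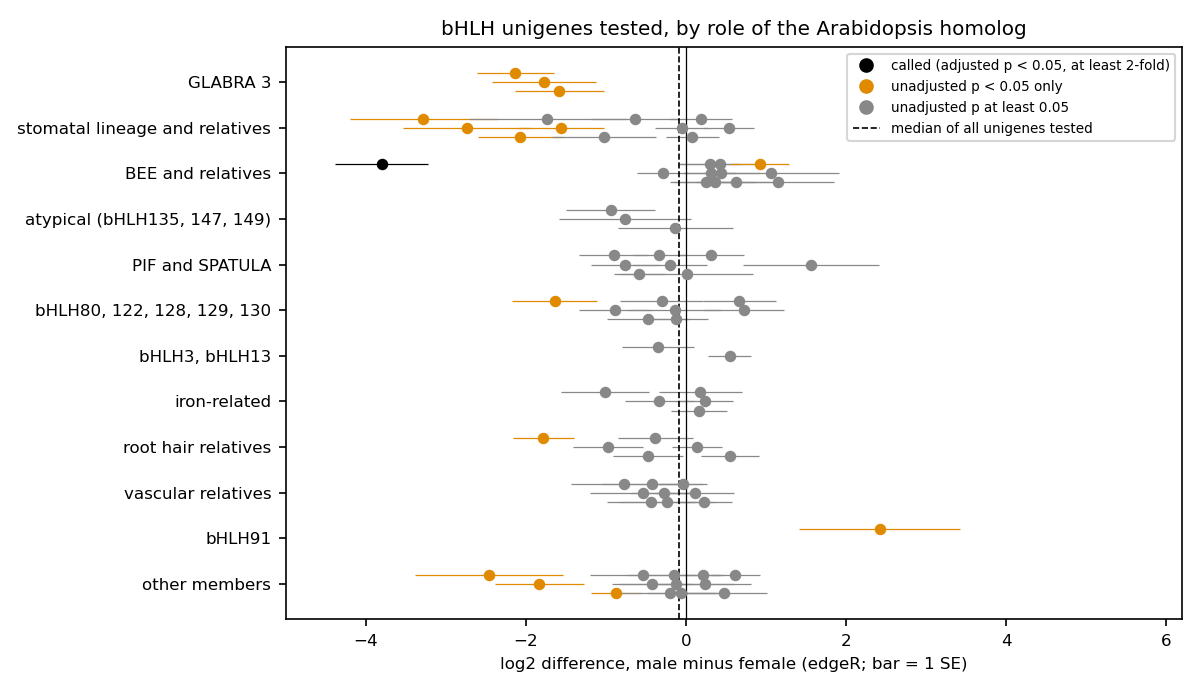
Log2 difference (male minus female) of the 81 bHLH unigenes tested, with 1 SE, in rows by the role of the Arabidopsis homolog, black where called, orange at an unadjusted p under 0.05 only and grey otherwise; the dashed line is the median of all unigenes tested (-0.09). BEE 1 is the single black point (-3.80), the 3 GL3 unigenes lie together between -2.13 and -1.58, and the other unigenes of the BEE row lie between -0.29 and 1.15.

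BEE 1 (contig_11417, 938 bp) belongs to the brassinosteroid-early-expressed bHLH genes, which in Arabidopsis promote growth and, with a close relative, act in the reproductive tract of the gynoecium. It was at 0.372, 0.698 and 1.21 TMM-scaled RPKM in male replicates 1, 2 and 3 and at 14.5, 11.1 and 5.84 in female replicates 1, 2 and 3. Every female library lay above every male library, female replicate 3 included. The mean was 0.760 ± 0.422 (SD, n = 3) in male and 10.5 ± 4.37 in female flowers, a 13.9-fold higher fitted level in female flowers (log2 difference -3.80 ± 0.58 SE, edgeR adjusted p = 0.0164). The values rest on 4, 15 and 14 reads in the male libraries and 761, 768 and 20 in the female ones. The call stood in the fit blocked by replicate number (adjusted p = 0.0374) and with DESeq2 (adjusted p = 2.50e-07). It was lost when male replicate 2 (adjusted p = 0.117), female replicate 1 (0.0681) or female replicate 2 (0.0706) was left out, and in limma on log2 RPKM (0.127 and 0.139 with pseudocounts of 1 and 0.1). The study had placed BEE 1, the 3 GL3 unigenes, bHLH96 (contig_5155) and bHLH61 (contig_11661) in its own list of differing genes from these samples, so that this list is not independent evidence of their direction.

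The subfamily of BEE 1 held 13 unigenes, of which 12 were tested. Of these, 10 had a higher fitted level in male flowers (against 45.5% of all unigenes tested), 9 of them at an unadjusted p above 0.05. Besides BEE 1, bHLH137 (contig_18997) had a higher fitted level in female flowers (-0.29 ± 0.32, adjusted p = 0.731), and the untested BEE 3 (contig_27966) had 1 read in male and 53 in female flowers. bHLH63, known in Arabidopsis as CIB1, a partner of the blue-light receptor cryptochrome 2 that promotes flowering, was at 7.20, 9.96 and 9.71 in male and 3.34, 5.35 and 5.59 in female flowers. Its male and female libraries did not overlap (log2 difference 0.93 ± 0.36, unadjusted p = 0.0344, adjusted p = 0.338). The other members of the subfamily with a higher male level (bHLH49, bHLH60, bHLH62, bHLH74 and bHLH79) ran from 0.25 to 1.15, and their libraries overlapped. Among these bHLH62 (contig_13116) had the largest difference and, as bHLH79 and bHLH49 did, its lowest value in male replicate 1, with 1.21 there and 10.3 and 9.37 in male replicates 2 and 3. The female libraries were at 2.37, 3.36 and 3.80. Without male replicate 1 the median of the 12 rose from 0.39 to 0.84, while that of all unigenes moved from -0.09 to 0.00. bHLH62 and bHLH137 were chosen after their values were seen.

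**Figure D3:**
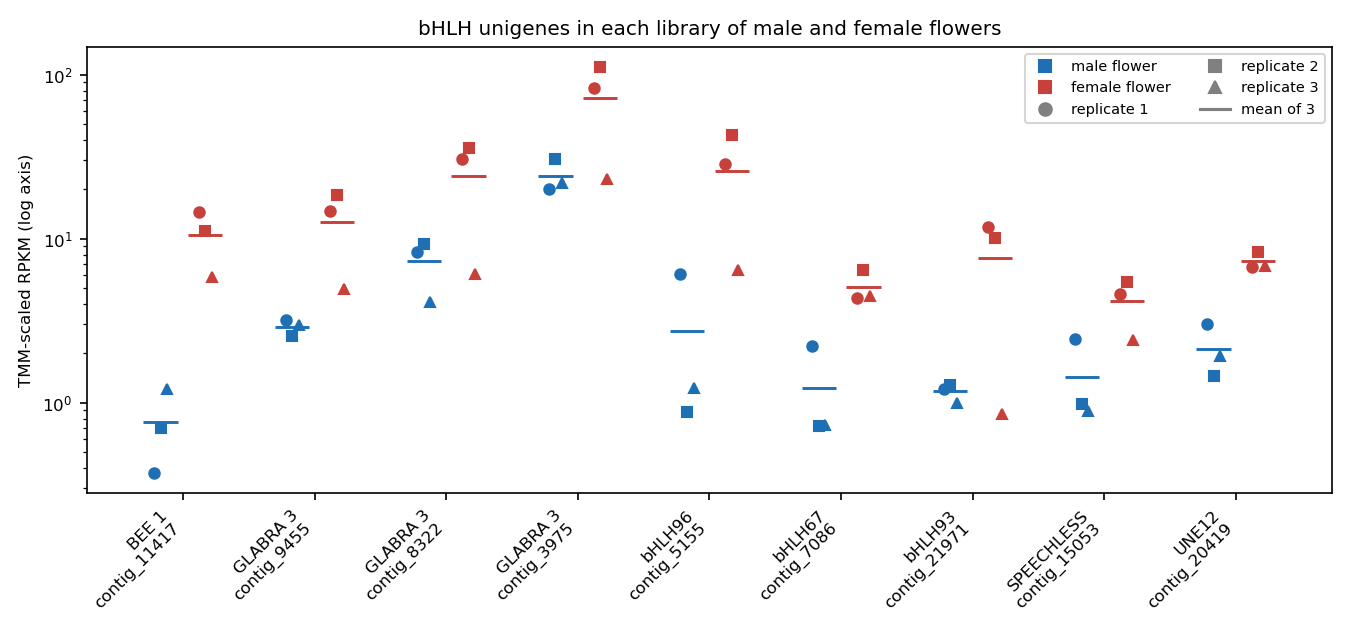
TMM-scaled RPKM (log axis) of 9 of the 13 bHLH unigenes with an unadjusted p under 0.05 and a higher level in female flowers. Each male (blue) and female (red) library is shown, with the replicate by shape and bars at the means of 3. In BEE 1, GLABRA 3 contig_9455, bHLH96, bHLH67 and UNE12 all 3 red points lie above the blue ones, while in bHLH93 female replicate 3 (0.847) lies below all male libraries. On the RPKM as deposited, the libraries of GLABRA 3 contig_9455, bHLH96, bHLH67 and UNE12 overlapped.

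GL3 in Arabidopsis forms complexes with MYB proteins and the WD40 protein TTG1 that start trichomes and pattern the epidermis. The assembly held 3 unigenes named for it, of 3460 bp (contig_9455), 1713 bp (contig_3975) and 314 bp (contig_8322). Whether they are separate genes or pieces of 1 gene is not given, and reads could have been split between them. The qRT-PCR primers designed against contig_9455, of 22 and 20 bases with 36.4% and 40% G and C, are shown because they mark the transcript whose reads are described.
forward primer of contig_9455: tactaatcgaaatcaagtgtcc
reverse primer of contig_9455: tgaagcaactgttaatccct

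Contig_9455 was at 3.18, 2.56 and 2.97 TMM-scaled RPKM in male replicates 1, 2 and 3 and at 14.7, 18.4 and 4.91 in female replicates. The groups did not overlap, and female replicate 3 was nearer to the male libraries than to the other female ones. On the RPKM as deposited, without TMM, the groups overlapped. The mean was 2.90 ± 0.313 (SD, n = 3) in male and 12.7 ± 6.97 in female flowers (log2 difference -2.13 ± 0.48, unadjusted p = 0.00231, edgeR adjusted p = 0.1). DESeq2 gave an adjusted p of 0.00918, and edgeR without female replicate 3 gave -2.37 with an adjusted p of 0.00663. Contig_9455 was not called on library totals without TMM (adjusted p = 0.144), in the fit blocked by replicate number (0.126) or in limma. With any other library left out, its adjusted p was 0.159 to 0.381.

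Contig_3975 had the highest level of the 3, with 20.1, 30.7 and 21.9 in male and 82.6, 111 and 23 in female flowers. Female replicates 1 and 2 were above every other library, and female replicate 3 lay within the male range (-1.58 ± 0.56, adjusted p = 0.298). Without female replicate 3 the difference was -1.85 with an adjusted p of 0.0356. With any other library left out the adjusted p was 0.32 to 0.682, and DESeq2 gave 0.17. The short contig_8322 showed the same order, with 8.33, 9.32 and 4.13 in male and 30.7, 35.8 and 6.11 in female flowers (-1.77 ± 0.65, adjusted p = 0.310). For all 3, female replicates 1 and 2 were the highest libraries. Together the GL3 unigenes summed to 48.0 to 64.3 CPM in male libraries and to 202, 265 and 58.4 CPM in female replicates 1, 2 and 3. All 3 had an unadjusted p under 0.05 with female flowers higher, against 7.42% of all unigenes tested. With edgeR 0 were called (against 0.143% of all). DESeq2 called 1, against 1.50% of all unigenes with a DESeq2 adjusted p. If the 3 are pieces of 1 gene, they count as 1 observation.

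Of 16 unigenes for known partners and targets of GL3, 14 were tested and 0 were called. At an unadjusted p under 0.05 there were 2, both with female flowers higher (14.3%, against 7.42% of all unigenes tested). DESeq2 called 2 of the 16 higher in female flowers, against 1.50% of all unigenes with a DESeq2 adjusted p. The median log2 difference of the 14 was -0.37, against -0.09 for all. The small single-repeat MYB proteins TRY and CPC, which in Arabidopsis compete with the activating MYB proteins for GL3, gave the 2 at an unadjusted p under 0.05. The DESeq2 calls were TRY (adjusted p = 0.0160) and WER (contig_26323), a MYB partner of GL3, at 0.468, 1.17 and 0.217 in male and 2.88, 12.2 and 2.20 in female flowers (DESeq2 adjusted p = 0.0394), which did not pass the edgeR filter. TRY (contig_24860) was at 0.980, 0.123 and 0.228 in male and 3.90, 2.80 and 3.08 in female flowers, with no overlap (-2.98 ± 0.78, adjusted p = 0.162). CPC (contig_4543) was at 20.8, 19.1 and 19.5 in male and 29.0, 38.7 and 39.4 in female flowers, also with no overlap (-0.85 ± 0.28, adjusted p = 0.261). The libraries of the other CPC unigene (contig_10012) overlapped (-1.38 ± 0.72, adjusted p = 0.463). TTG1 (contig_6442) was highest in female replicate 3 at 65.5 and male replicate 3 at 41.4, and between 9.66 and 16.3 in the other libraries (-0.27 ± 0.79, adjusted p = 0.911). GLABRA 2 (contig_7166), a homeodomain target of the complex, lay between 12.7 and 22.4 in all 6 libraries (0.18 ± 0.33, adjusted p = 0.849).

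In the stomatal lineage of Arabidopsis, SPEECHLESS starts the lineage, MUTE ends the divisions and FAMA sets the guard cell, each with ICE1 or its relative as partner, and bHLH67, bHLH71 and bHLH96 are close relatives of these proteins. Of 12 unigenes of this group, with bHLH93 and bHLH61 of the ICE1 subfamily included, 11 were tested. Of these, 8 had a higher fitted level in female flowers (72.7%, against 54.5% of all unigenes tested). Their median log2 difference was -1.02, against -0.09 for all. With edgeR 0 were called. At an unadjusted p under 0.05 there were 4, all with female flowers higher (36.4%, against 7.42% of all). DESeq2 called 3, against 1.50% of all unigenes with a DESeq2 adjusted p.

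bHLH96 (contig_5155) was at 6.05, 0.879 and 1.22 TMM-scaled RPKM in male and 28.6, 42.8 and 6.44 in female flowers. The groups did not overlap, but the highest male library (replicate 1) and the lowest female library (replicate 3) nearly met. On the RPKM as deposited the groups overlapped. The mean was 2.72 ± 2.89 (SD, n = 3) against 26.0 ± 18.3, and the log2 difference was -3.28 ± 0.92 (unadjusted p = 0.00773, adjusted p = 0.193). It was called by DESeq2 (adjusted p = 0.0086) and by edgeR on library totals without TMM (adjusted p = 0.00305). It was not called in the blocked fit (0.0995) or in limma (0.0886 and 0.113 with pseudocounts of 1 and 0.1). With 1 library left out, its adjusted p was 0.056 to 0.474. The other unigenes named bHLH96, contig_11190 (-1.02 ± 0.65, adjusted p = 0.546) and contig_3511 (-0.05 ± 0.33, adjusted p = 0.963), had overlapping libraries.

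bHLH67 (contig_7086) was at 2.22, 0.716 and 0.734 in male and 4.36, 6.4 and 4.5 in female flowers. All female libraries were above all male ones, and the 3 female values lay close together (-2.07 ± 0.53, unadjusted p = 0.00474, adjusted p = 0.152). This holds for the TMM-scaled values only, since the libraries overlapped on the RPKM as deposited. Female replicate 3 rested on 38 reads. bHLH67 was called by DESeq2 (adjusted p = 0.0247) and without male replicate 1, the highest male library (adjusted p = 0.0230). With any other library left out its adjusted p was 0.0829 to 0.44. The blocked fit (0.124) and limma did not call it. bHLH93 (contig_21971), which in Arabidopsis acts in flowering under short days, was at 1.21, 1.28 and 1 in male and 11.8, 10.1 and 0.847 in female flowers. Female replicate 3 was the lowest of the 6 libraries and rested on 4 reads (-2.74 ± 0.79, adjusted p = 0.206). Without that library the difference was -3.08 with an adjusted p of 0.00570. With any other library left out, bHLH93 had an adjusted p of 0.22 to 0.494. Its close relative bHLH61 (contig_11661) was high in female replicates 1 and 2 (25.5 and 22.9) and in male replicate 1 (12.4), and at 1.17, 2.32 and 3.14 in male replicates 2 and 3 and female replicate 3 (-1.73 ± 0.98, adjusted p = 0.494). bHLH93 and bHLH61 were chosen after their values were seen.

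SPEECHLESS (contig_15053) was at 2.45, 0.976 and 0.885 in male and 4.63, 5.42 and 2.42 in female flowers. Female replicate 3 and male replicate 1 were almost level (-1.56 ± 0.54, unadjusted p = 0.0201, adjusted p = 0.286). FAMA (contig_31920) was at 1.36, 2.04 and 0.841 in male and 3.22, 2.17 and 1.07 in female flowers, with overlap (-0.64 ± 0.55, adjusted p = 0.651). The second ICE1 unigene (contig_13166) was at 17.7, 10.3 and 15.8 in male and 10.5, 8.64 and 11 in female flowers, also with overlap (0.54 ± 0.31, adjusted p = 0.502). bHLH71 (contig_14544), chosen after its values were seen, had 8.88 to 15 in male and 9.85 to 13.5 in female libraries. A list of 38 unigenes for stomatal signalling held TOO MANY MOUTHS, ERECTA-family receptor kinases, EPIDERMAL PATTERNING FACTOR peptides, SDD1 and YODA. Of these, 21 were tested, 0 were called (against 1.70% of all), and the median was -0.17. At an unadjusted p under 0.05, 1 lay higher in female flowers (4.76%, against 7.42% of all). DESeq2 called 2 of the 38 higher in male flowers, against 2.51% of all unigenes with a DESeq2 adjusted p. The 2, EPIDERMAL PATTERNING FACTOR-like protein 4 (contig_41023) and SDD1 (contig_38635), did not pass the edgeR filter. They had 6, 21 and 24 and 25, 8 and 3 reads in male flowers, and 2, 6 and 0 and 0, 3 and 0 in female flowers.

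UNE12 is named for an Arabidopsis mutant with unfertilised embryo sacs and belongs to the subfamily of bHLH66, bHLH69 and bHLH82, which act in root hair growth. UNE12 (contig_20419) was at 3.03, 1.45 and 1.93 in male and 6.72, 8.33 and 6.81 in female flowers. All 3 female libraries, replicate 3 included, were above the male ones on this scale. On the RPKM as deposited, without TMM, the libraries of the sexes overlapped. The mean was 2.13 ± 0.809 (SD, n = 3) against 7.29 ± 0.905, a 3.44-fold higher fitted level in female flowers (log2 difference -1.78 ± 0.38, unadjusted p = 0.00167, adjusted p = 0.0801). It was called by DESeq2 (adjusted p = 0.0102) and without male replicate 1 (adjusted p = 0.0494). With any other library left out its adjusted p was 0.0662 to 0.356. The blocked fit (0.0944) and limma did not call it. The other UNE12 unigene (contig_2850) was at 12.7 to 16.1 in male and 10.4 to 17.7 in female libraries (0.14 ± 0.31, adjusted p = 0.872). The 6 tested unigenes of this group had a median of -0.43, against -0.09 for all unigenes. Of the 6, 4 lay higher in female flowers (66.7%, against 54.5% of all).

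Among unigenes outside these groups, bHLH117 (contig_7023) had low levels that did not overlap, 0.227, 0.313 and 0.211 in male and 1.24, 0.717 and 0.715 in female flowers. Its female libraries rested on 106, 81 and 4 reads and its male ones on 4, 11 and 4 (-1.83 ± 0.56, adjusted p = 0.236). Of the other unigenes with an unadjusted p under 0.05 and a higher level in female flowers, bHLH68, bHLH129 and bHLH118 were chosen after their values were seen. bHLH68 (contig_1626) was at 9.45, 9.70 and 10.3 in male and 13.4, 16.7 and 23.9 in female flowers, and female replicate 3 was the highest (-0.87 ± 0.31, adjusted p = 0.302). Its libraries overlapped on the RPKM as deposited. bHLH129 (contig_5226) was at 0.373, 0.560 and 0.545 in male and 1.47, 2.17 and 0.838 in female flowers (-1.64 ± 0.53, adjusted p = 0.258). bHLH118 (contig_19017) was at 0.0872, 0.524 and 0.162 in male and 1.5, 0.502 and 3.29 in female flowers, where female replicate 2 fell within the male range (-2.46 ± 0.93, adjusted p = 0.322).

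PIF proteins bind active phytochrome and are broken down in light, and SPATULA, from the same subfamily, is needed for the carpel margin in Arabidopsis. Of 9 unigenes in this group 8 were tested, 0 were called by edgeR or DESeq2, 0 had an unadjusted p under 0.05, and the median was -0.26. SPATULA was represented by 3 unigenes. Contig_8582 was at 2.87, 2.61 and 3.20 in male and 4.11, 3.76 and 5.18 in female flowers. Its groups did not overlap, with a small difference (-0.58 ± 0.32, adjusted p = 0.483). First_Contig275 (-0.20 ± 0.46, adjusted p = 0.881) had overlapping libraries. Contig_25950 was at 8.20, 1.77 and 1.24 in male and 6.56, 2.86 and 1.26 in female flowers, so that replicate 1 was the highest and replicate 3 the lowest in both sexes (0.01 ± 0.83, adjusted p = 0.998).

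PIF3 (contig_18740) was at 4.2, 4.71 and 1.91 in male and 8.29, 7.09 and 4.76 in female flowers, with female replicate 3 only just above male replicate 2 (-0.90 ± 0.43, adjusted p = 0.415). A second PIF3 unigene (contig_17488) was between 6.34 and 10.8 in all 6 libraries (-0.33 ± 0.33, adjusted p = 0.707). PIF1 (contig_8182) was at 2.89, 4.13 and 3.92 in male and 3.89, 4.93 and 10.0 in female flowers (-0.76 ± 0.42, adjusted p = 0.484). PIF7 (contig_31925) was at 1.57, 1.26 and 1.37 in male and 1.20, 1.18 and 0.928 in female flowers. Its groups did not overlap but differed little (0.32 ± 0.41, adjusted p = 0.778). UNE10 (contig_17074), a PIF-related protein, was low throughout, at 0.241 to 1.68 in male and 0.196 to 0.566 in female libraries, and its highest value was in male replicate 1 (1.56 ± 0.85, adjusted p = 0.478). All 6 phytochrome unigenes were tested, 0 were called by edgeR or DESeq2, 0 had an unadjusted p under 0.05, and their median was -0.34.

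In the tapetum of Arabidopsis anthers, DYT1 acts with bHLH10, bHLH89 and bHLH91, and AMS follows it. bHLH91 (contig_36749) had the largest difference toward male flowers among the 81, with 8.80, 1.48 and 1.46 TMM-scaled RPKM in male and 0.719, 1.16 and 0 in female flowers. The groups did not overlap, but male replicate 1 stood far above the other 5 libraries. Female replicate 3 had 0 reads, which allows up to 3 by counting error. The log2 difference was 2.42 ± 1 (unadjusted p = 0.0418, adjusted p = 0.359), and without male replicate 1 it was 1.18. AMS and DYT1, which lack bHLH in their SwissProt names, are in a list of 17 further bHLH proteins. AMS (contig_5630) was at 24.6, 15.8 and 16.3 in male and 7.01, 8.05 and 12 in female flowers, with no overlap (1.07 ± 0.35, adjusted p = 0.262). DYT1 (contig_29171) was at 1.57, 1.32 and 0.583 in male and 1.38, 1.80 and 1.58 in female flowers (-0.45 ± 0.51, adjusted p = 0.740). The pollen and anther list moved with sex as given above, and its part in the levels of bHLH91 and AMS was not tested.

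The other unigenes whose male libraries all lay above the female ones showed small differences. bHLH3 (contig_10469), a repressor of jasmonate responses in Arabidopsis, was at 13.0, 14.4 and 17.5 in male and 9.21, 10.4 and 11.1 in female flowers (0.55 ± 0.27, adjusted p = 0.437). bHLH110 (contig_4721) was at 7.84, 5.62 and 5.27 in male and 3.91, 3.72 and 4.57 in female flowers (0.62 ± 0.31, adjusted p = 0.439). bHLH140 (contig_7152) was at 10.5, 8.61 and 8.95 in male and 8.56, 8.26 and 7.39 in female flowers (0.21 ± 0.26, adjusted p = 0.769). For bHLH140 the lowest male and the highest female library were nearly equal.

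Among the further bHLH proteins, 14 of 17 were tested, 0 were called, and the median was -0.49, against -0.09 for all unigenes. At an unadjusted p under 0.05, 1 lay higher in male flowers (AMS, 7.14%, against 5.75% of all). In female flowers 2 lay higher (14.3%, against 7.42%). The 2 were named MYC4, a jasmonate-response factor in Arabidopsis. Contig_21951 was at 0.196, 0.0491 and 0.0455 in male and 2.63, 0.824 and 1.23 in female flowers, resting on 4, 2 and 1 reads against 261, 108 and 8. Its groups did not overlap (-4.11 ± 0.82, adjusted p = 0.0591), and it was called in the fit blocked by replicate number (adjusted p = 0.0299) and by DESeq2 (adjusted p = 5.50e-04). Contig_13774 was at 1.14, 0.901 and 1.23 in male and 2.83, 3.90 and 2.64 in female flowers, also without overlap (-1.53 ± 0.36, adjusted p = 0.118), and was called by DESeq2 (adjusted p = 0.0292), so that DESeq2 called these 2 of the list. Of 13 TIFY unigenes, a family that includes the JAZ repressors of MYC proteins, 10 were tested and 0 were called by edgeR or DESeq2. The 1 with an unadjusted p under 0.05, with female flowers higher, was TIFY 8 (contig_18231; 10.0%, against 7.42% of all unigenes tested).

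The remaining role groups held no unigene called by edgeR, and the DESeq2 calls among them were bHLH25, bHLH52 and bHLH126, all with few reads. The 5 tested unigenes related to iron uptake (bHLH47, bHLH104 and bHLH121) ran from -1.01 to 0.24. The 9 unigenes related to vascular cell division and the SAC51 group (bHLH30, bHLH51, bHLH106, bHLH143, bHLH144, bHLH145, bHLH155 and bHLH157) ran from -0.77 to 0.23, and 0 had an unadjusted p under 0.05 or a DESeq2 call. The 8 unigenes of the bHLH80, bHLH122, bHLH128, bHLH129 and bHLH130 group, which acts in flowering and guard cells, had a median of -0.22. Of these, 1 had an unadjusted p under 0.05 (bHLH129, higher in female flowers, 12.5%, against 7.42% of all unigenes tested). The 3 tested atypical members (bHLH135, bHLH147 and bHLH149), of families known to modulate other bHLH proteins, ran from -0.94 to -0.13. The summed level of all 4 atypical unigenes, the untested one included, was 82.2 CPM in female replicate 3 and 16.6 to 35.1 CPM in the other 5 libraries. The highest of the 3 tested was bHLH147 (contig_3157), chosen after its values were seen. It was at 9.23 to 20 TMM-scaled RPKM in the other 5 libraries and at 50.8 in female replicate 3. Of the photosystem and rubisco unigenes, whose summed level was also high in that library (5535 CPM) and in male replicate 1 (8281 CPM) against 539 to 1674 CPM in the others, 19 of 30 were tested, and 0 were called by edgeR or DESeq2 or had an unadjusted p under 0.05. Their part in the bHLH values of these libraries was not tested.

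The 15 unigenes that did not pass the expression filter had 14 to 268 reads in all and a median length of 597 bp, against 1452 bp for those tested. Of these, 5 had at least 20 reads in one sex and at most 3 in the other, and they were chosen after their values were seen. bHLH92 (contig_52708), chosen likewise, had 0, 5 and 0 reads in male and 261, 2 and 0 in female replicates, so that nearly all of its reads came from female replicate 1. bHLH126 (contig_36738) had 10, 19 and 9 reads in male and 0, 2 and 0 in female flowers, a ratio of 54.1 on the scaled totals with an exact 95% interval of 14 to 463 that covers counting error only. DESeq2 (adjusted p = 3.40e-04) called it higher in male flowers. bHLH52 (contig_36680) had 16, 4 and 4 reads in male and 1, 0 and 0 in female flowers (ratio 68.4, interval 11.2 to 2813), and DESeq2 called it also (adjusted p = 0.0101).

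Toward female flowers, bHLH25 (contig_17399) had no read in male flowers and 144, 8 and 2 in female replicates 1, 2 and 3. Against a floor of 3 reads over the male group it was at least 18-fold higher in female flowers, but most of the reads came from 1 library (DESeq2 adjusted p = 0.0101). BEE 3 (contig_27966), another brassinosteroid-early-expressed gene, had 0, 1 and 0 reads in male and 40, 9 and 4 in female flowers (ratio 18.6, interval 3.2 to 748; DESeq2 adjusted p = 0.0974). bHLH36 (contig_51598) had 1 read in male flowers against 8, 30 and 0 in female flowers (ratio 13.3, interval 2.25 to 540).

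The calls depended on single libraries. Without female replicate 3 edgeR called 4 bHLH unigenes higher in female flowers (BEE 1, bHLH93 and the GL3 unigenes contig_9455 and contig_3975) and 1 in male flowers (bHLH126), against 0.789% and 1.83% of all unigenes tested. Without male replicate 1 it called 3 in female flowers (BEE 1, bHLH67 and UNE12) and 1 in male flowers (bHLH126), against 0.149% and 1.85%. When male replicate 2 was left out, or female replicate 1 or 2, it called 0 in either direction. The share of all unigenes called in these fits was not taken, so these counts of 0 are no result about the bHLH unigenes. With each library left out, the differences of 9 unigenes kept their sign. They were chosen from the 13 with an unadjusted p under 0.05 and female flowers higher in these same libraries. A kept sign was therefore likely from the choice and is no separate support.

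**Figure D4:**
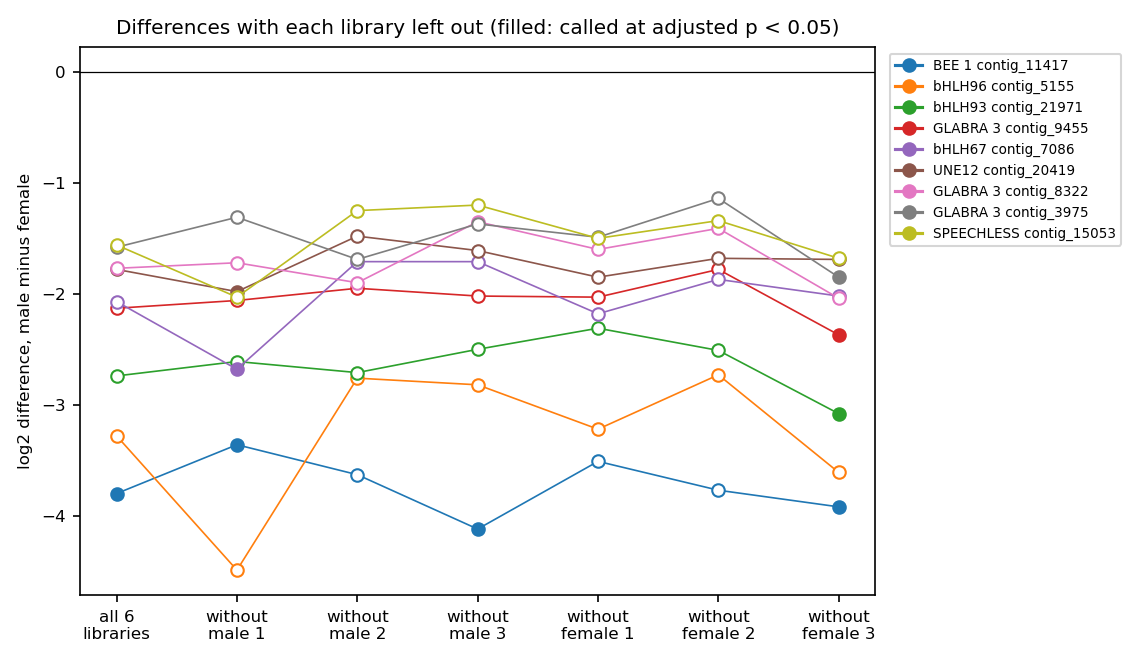
Log2 difference (male minus female, y axis) of 9 bHLH unigenes in edgeR fits with all 6 libraries and with each library left out (x axis), filled where called at an adjusted p under 0.05; lines only join the points of a unigene. All values lie below 0, BEE 1 runs from -4.12 to -3.36 and bHLH96 (contig_5155) from -4.49 to -2.73.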

How the data were processed

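Per the labels and methods, total RNA of 6 samples was sequenced (paired reads, Illumina). The authors removed adapters, short and low-quality reads and assembled unigenes de novo with CLC Genomics Workbench and CAP3. The mapper and counter are not given in the sources used here. Deposited by the authors were, per unigene and library, read counts and RPKM (reads relative to unigene length and to the sum of the library), with SwissProt and NR matches. Recomputing RPKM from these counts gave the deposited RPKM within a relative difference of 4.73e-08. Columns marked an and gy were taken as male and female flowers, and 7 lines without a unigene of their own were left out.

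Counts were tested in R 4.3.3 with edgeR 4.0.16 (filterByExpr, TMM, quasi-likelihood test, prior count 0.125) over all unigenes, without a block. The biological coefficient of variation was 51%. SE was taken as the size of the log2 difference over the root of its F statistic. The test was also run on data simulated from the means, totals and dispersion of the main fit, and the outcome is not given here. Alternatives were RLE scaling, library totals, no filter, a replicate block, no fold threshold, DESeq2 1.42.0, limma 3.58.1 on log2(RPKM + 1) or log2(RPKM + 0.1), and each library left out. Tables were made with pandas 2.3.3, numpy 2.4.6 and scipy 1.17.1 under Python 3.11.15, and plots with matplotlib 3.10.9. Deviations of samples from the means of their sex had correlations of 0.19, 0.13 and 0.37 between samples of the same number and of -0.32 to 0.16 between the others. The numbers may therefore pair the samples, although the lowest correlation within a number (0.13) lay below the highest between numbers (0.16). The main fit has no block, so that its p-values and SE ignore any such pairing. Block results are given where they change a call or a count of calls. The labels do not say whether replicates came from separate plants, so that p-values measure the spread between these samples.

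Unigenes, lists and rules were chosen with earlier results of these data known. Named were called unigenes, tested unigenes named GLABRA 3, BEE, HBI1, PIF, SPATULA, UNE, MUTE, FAMA, SPEECHLESS, ICE1, bHLH96, bHLH10, bHLH89 or bHLH91, the 5 with the highest mean RPKM, and, in each direction, the 6 with the largest difference among those whose libraries did not overlap. Lists of partners and markers were taken from SwissProt descriptions. The study reported that qRT-PCR of selected transcripts matched the expression in its sequencing data. The qRT-PCR measurements were not used here, and only the primers of contig_9455 were taken from the supplement.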

Additional observations from a re-analysis of the deposited data

How the results depend on the processing

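Of the 401 values that the named unigenes had under the alternatives, 363 kept their direction and their side of the threshold, 9 became called, 5 lost the call and 24 (7 unigenes) turned direction. The count of bHLH unigenes called higher in female flowers, 1 with all libraries, was 2 on library totals without TMM, 7 with DESeq2, 0 in limma with either pseudocount, and 0 to 4 with 1 library left out. The count called higher in male flowers, 0 with all libraries, was 1 with no filter on low counts, 2 with DESeq2, and 0 to 1 with 1 library left out. In the fit with the replicate block the counts were 1 and 0, as without it, and among the named bHLH unigenes the block changed no call. On library totals the median log2 difference of all unigenes moved from -0.09 to -0.41 and that of the bHLH unigenes from -0.20 to -0.62, so that the shift was shared.

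The following differences turned direction. On library totals they were -0.13 for PIF7, -0.76 for SPATULA (contig_25950), -0.03 for UNE12 (contig_2850) and -0.21 for bHLH140. With no filter they were 0.11 for bHLH144 and 0.11 for bHLH96 (contig_3511), and with DESeq2 0.05 and 0.04. SPATULA (contig_25950) was at -0.14 with the replicate block and at -0.32 and -0.20 in limma with pseudocounts of 1 and 0.1. With 1 library left out, SPATULA ran from -1.14 to 0.77 (contig_25950) and from -0.56 to 0.11 (First_Contig275), UNE12 (contig_2850) from -0.02 to 0.53, bHLH144 from -0.04 to 0.15 and bHLH96 (contig_3511) from -0.17 to 0.22. The cause was not tested.

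Depth limits unigenes of few reads most in female replicate 3, where 3 reads on a unigene of low level are within counting error.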
